A study of Mus musculus with 2 samples.

Results

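Smooth muscle-rich heart spots are the 80 spots of a mouse heart section in which the smooth muscle genes Acta2, Myh11, Tagln and Cnn1 took the largest share of the counts. They were chosen from 2805 heart spots with at least 4000 counts and 200 detected features, which were ranked by the summed counts of the 4 genes over the total of the spot, with ties kept in the order of the barcode list. The 80 spots are 2.85% of the ranked heart spots, and the series holds 9984 barcodes in its 2 sections. The sections are of 1 normal brain and 1 normal heart, both formalin-fixed, paraffin-embedded (FFPE) mouse tissue cut at 5 µm, and 1 library was made from each. Libraries were made with spRandom-seq, in which total RNA is copied in place with random primers and tagged by array position. The treatment label of both samples says that the primer lacked cell barcode 2, and strain, age and sex are not given in the sources used here. The other 2725 ranked heart spots are the group set against the 80, and both groups come from the same section.

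Smooth muscle cells form the wall of the coronary arteries and arterioles and of the large vessels that leave the heart. They contract when calcium activates myosin light chain kinase, which phosphorylates the light chain of smooth muscle myosin and lets it pull on actin filaments anchored by filamin and alpha-actinin. Nitric oxide relaxes them through guanylate cyclase and the cyclic GMP-dependent kinase, and Notch signals from the arterial lining help to keep them in the contractile state.

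A spot is a small region that can hold several cells of different types or part of one, so the spots are called by the genes that chose them and not as a cell type. In summed spots, fewer cells of a type and less RNA per cell cannot be told apart. Values are counts, and levels are given as CPM, which scales the summed counts of a group of spots to 1000000 in all. With 1 heart library no comparison has a replicate, no test was run, and each interval in brackets is an exact 95% interval that covers counting error only. Whether the counts are separate molecules is not stated, so the intervals may be too narrow.

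The 80 spots held 1376216 counts, against 41841214 counts in the other spots, of 44768698 in the heart library. A smooth muscle-rich spot had 4068 counts at the lowest, 10958 at the median and 54642 at the highest, against 4004, 11926 and 69150 counts in the other spots. Ribosomal RNA took 49.7% of the counts in the smooth muscle-rich spots and 51.5% in the other spots, and mitochondrial features took 6.61% and 8.11%. After each spot was thinned to 4000 counts, the median spot held 1284.5 features in the smooth muscle-rich spots and 1135 in the other spots. The brain and heart matrices list the same 4992 barcodes, so a barcode found in both does not show a shared cell.

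The 4 ranking genes are described here and nothing is drawn from their difference, since they chose the spots. Myh11, the heavy chain of smooth muscle myosin (ENSMUSG00000018830.11), had 428 counts or 311.0 CPM in the smooth muscle-rich spots, against 17.6 CPM in the other spots. Acta2, smooth muscle actin (ENSMUSG00000035783.10), had 174 counts or 126 CPM, against 10.8 CPM in the other spots. These are the myosin and actin of the contractile filaments. Tagln, the actin-binding protein transgelin (ENSMUSG00000032085.6), had 65 counts or 47.2 CPM, against 2.17 CPM in the other spots. Cnn1, calponin (ENSMUSG00000001349.6), which binds actin and slows the myosin motor, had 14 counts or 10.2 CPM, against 1.15 CPM in the other spots. The Tagln span overlaps Pcsk7 on the other strand in GENCODE, and strand use is not stated, so counts of that pair cannot be told apart.

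The spots differed widely in how much smooth muscle RNA stood behind their rank. The summed markers came to 1 count in the lowest spot, 4 in the median spot and 65 in the highest, against 0, 0 and 10 counts in the other spots. Of the 80 spots, 6 had a single marker count, 26 had 2, 48 had 3 or more and 23 had 10 or more. Among the other spots 1863 had none, 102 had 3 or more and 1 had 10 or more. Myh11 was counted in 69 of the 80 spots, Acta2 in 52, Tagln in 36 and Cnn1 in 10. Both Acta2 and Myh11 were counted in 43 spots, at least 3 of the markers in 27, and all 4 in 7, while 27 spots had counts of 1 marker alone. The first 10 ranks held 275 of the 681 marker counts, or 40.4%.

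The first-ranked spot had 6184 counts, of which 7 were Myh11, 6 Acta2 and 2 Tagln, or 2426 CPM. The spot of rank 4 was far deeper, with 48830 counts, of which 41 were Myh11, 16 Acta2 and 8 Tagln. The last spot taken, of rank 80, had 1 count of Acta2 among 4735 counts, or 211.2 CPM. The first spot left out, of rank 81, had 2 counts of Myh11 and 1 of Tagln among 14279 counts, or 210.1 CPM. Near the threshold, shallow spots with 1 marker count thus stand beside deeper spots with several.

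**Figure D1:**
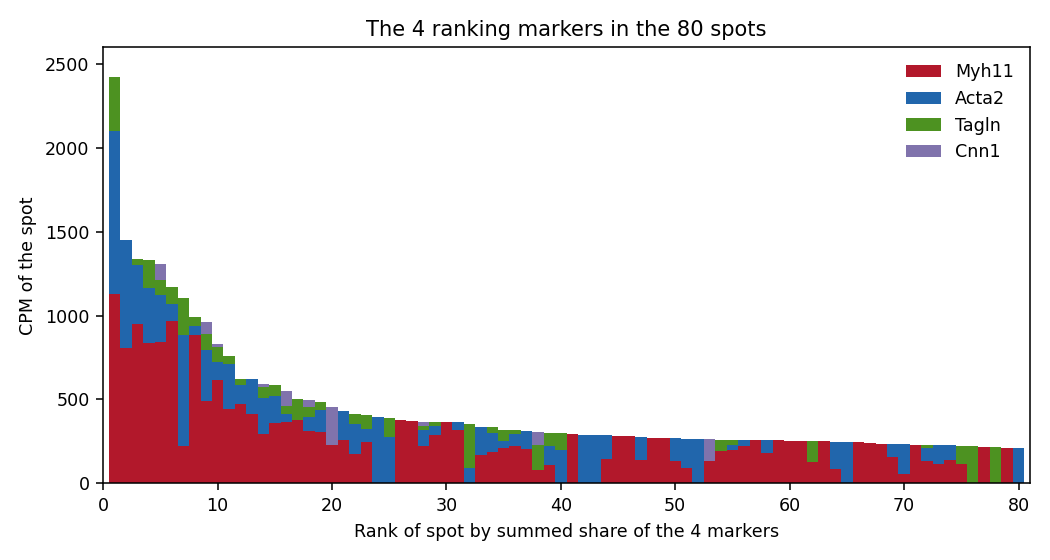
CPM of the spot (vertical axis) for Myh11, Acta2, Tagln and Cnn1, stacked, in each of the 80 smooth muscle-rich spots by rank (horizontal axis). The stack is 2426 CPM at rank 1 and 211.2 CPM at rank 80, and Myh11 and Acta2 make up most of it in the first ranks.

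The promoters of Acta2 and of Myl9, a light chain of smooth muscle myosin that the ranking did not use, are shown because genes of the contractile apparatus are known targets of serum response factor. That factor binds the CArG box, searched here as CCNNNNNNGG with at least 5 of the 6 middle bases A or T; the pattern reads the same on both strands. The sequences are the 250 bases before the gene start, from RefSeq on GRCm38.p6, Acta2 at chr19:34255374-34255623 on the minus strand and Myl9 at chr2:156775214-156775463 on the plus strand. They are written 5′ to 3′ along the gene, with the matches in capitals.
Acta2: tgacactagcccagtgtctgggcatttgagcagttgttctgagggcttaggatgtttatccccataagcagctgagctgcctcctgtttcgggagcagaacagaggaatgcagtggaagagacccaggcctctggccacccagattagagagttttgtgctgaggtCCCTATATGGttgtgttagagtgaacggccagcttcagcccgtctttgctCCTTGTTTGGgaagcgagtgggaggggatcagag
Myl9: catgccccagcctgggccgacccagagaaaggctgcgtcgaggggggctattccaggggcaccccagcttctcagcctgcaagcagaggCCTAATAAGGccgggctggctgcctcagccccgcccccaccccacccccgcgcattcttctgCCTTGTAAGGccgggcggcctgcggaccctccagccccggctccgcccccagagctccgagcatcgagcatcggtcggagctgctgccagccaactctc
The matches begin at bases -84 and -34 of Acta2 and at bases -161 and -99 of Myl9, counted from the gene start. Of 27025 genes with such a window, 9.78% hold a match. Of the 4 ranking genes 2 had a window, and only 1 of these, Acta2, holds a match. In the contractile list described next, 4 of the 18 genes with a window hold one (Myl9, Myl6, Cnn2 and Filip1l). Among cardiomyocyte sarcomere and calcium genes 8 of 18 do, and among fibroblast genes 2 of 11 do. Both printed promoters are thus among those with a match. A match is a string of letters in this window and says nothing of binding.

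Each ranking gene was also high in spots ranked without it. When the spots were ranked by the other markers alone, Acta2 had 95 CPM in the top 80 and 11.7 CPM in the rest, a ratio of 8.13 (6.68 to 9.86). Myh11 had 255 CPM in its top 80 and 20.9 CPM in the rest, a ratio of 12.2 (10.7 to 14.0). Tagln had 38.1 and 2.44 CPM, a ratio of 15.6 (11 to 21.9). Cnn1, the least counted, had 9.40 and 1.17 CPM, a ratio of 8.03 (3.99 to 15.02). Leaving out Myh11 changed the spots most: 42 of that top 80 were among the original 80, against 61 without Acta2, 72 without Tagln and 79 without Cnn1. The withheld gene was counted in a minority of its top 80: Acta2 in 34 spots, Myh11 in 34, Tagln in 28 and Cnn1 in 9. These rankings share markers and spots with the original one, so nothing is drawn from the ratios.

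**Figure D2:**
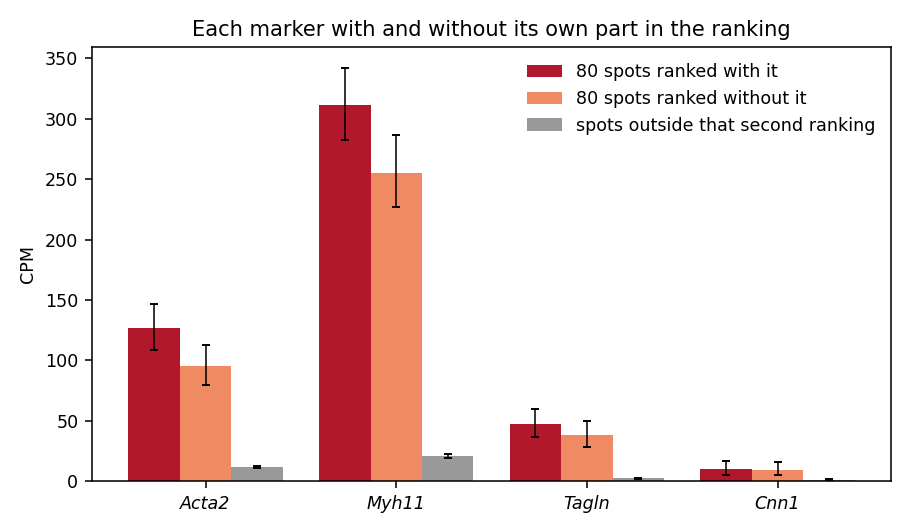
CPM of each ranking gene (vertical axis) in the 80 spots ranked with it, in the 80 spots ranked without it, and in the heart spots outside that second ranking's 80; lines are exact 95% counting intervals. Without Myh11 in the ranking, Myh11 was at 255 CPM in the top 80, against 20.9 CPM in the rest of that ranking.

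Across all features, 21 were at least 2-fold higher in the smooth muscle-rich spots at 50 CPM or more there, out of 1885 features with 50 CPM in either group (1.11%). None was at least 2-fold lower at 50 CPM in the other spots (0%). Myh11 and Acta2 are among the 21, so 19 genes outside the ranking passed this size rule. At 20 CPM or more, 51 of 4866 features were higher (1.05%) and 3 were lower (0.0617%). The median feature was itself 1.11-fold higher, a log2 ratio of 0.15, with 9 in 10 features between -0.22 and 0.58. Scaled to counts outside ribosomal, mitochondrial and small structured RNA, the median was 0.04, 36 of 4544 features were higher (0.792%) and 4 were lower (0.088%). A ratio above 1 was common, at 75.8% of the features at 50 CPM and 71.8% of those at 20 CPM. Ratios near 1 and counts of list genes above 1 are read against these shifts and shares.

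**Figure D3:**
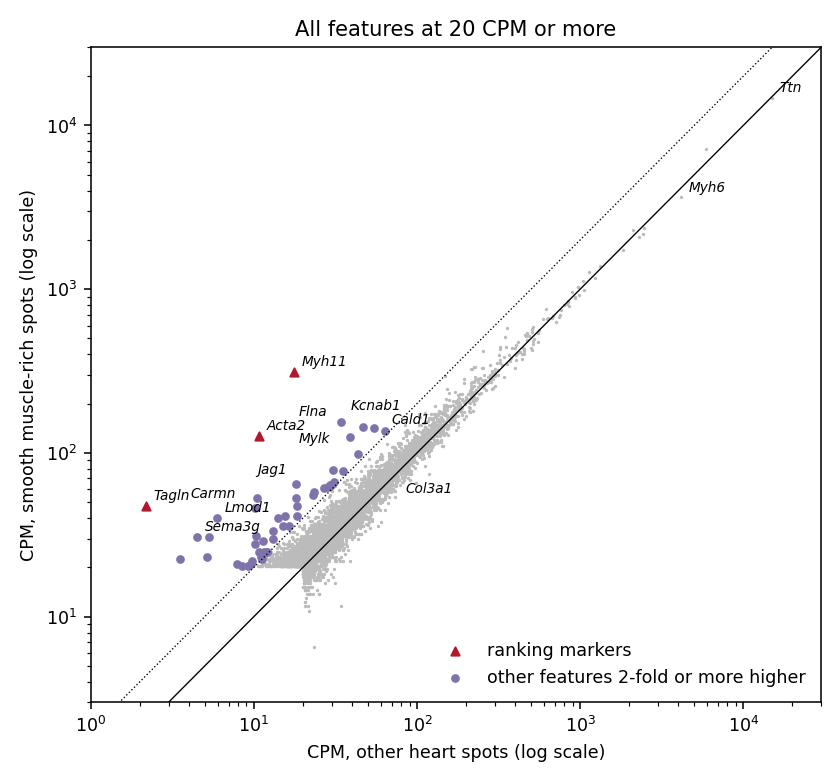
CPM in the smooth muscle-rich spots (vertical axis, log scale) against CPM in the other heart spots (horizontal axis, log scale) for features with 20 CPM in either group, leaving out ribosomal, mitochondrial and small structured RNA. The solid line marks equal levels and the dotted line 2-fold; the 51 features past it carry large symbols, with Flna at 155 against 34.4 CPM.

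Contractile genes that the ranking did not use were then set beside the label, and part of that machinery was higher in the same spots. Their list was chosen with earlier results of these data known, so it is not an independent check of the label. Of 20 listed contractile and cytoskeletal genes, 19 had a ratio above 1, beside 75.8% of all features at 50 CPM. The size rule was passed by 4 at 50 CPM and 10 at 20 CPM, beside 1.11% and 1.05% of all features. Their median log2 ratio was 1.15, beside 0.15 for all features. Filamin A (Flna), which crosslinks actin, had 155 CPM in the smooth muscle-rich spots and 34.4 CPM in the other spots, a ratio of 4.52 (3.90 to 5.23). Per spot, Flna had 0, 1 and 24 counts at the lowest, median and highest smooth muscle-rich spot, against 0, 0 and 9 in the other spots, so the groups overlap spot by spot. Mylk, the kinase that starts contraction, had 126 and 38.7 CPM, a ratio of 3.25 (2.76 to 3.8), and was counted in 45 of the 80 spots. Cald1, caldesmon, which holds myosin off actin, had 142 and 54.2 CPM, a ratio of 2.63 (2.26 to 3.04), and was counted in 53 spots. Actn1, the alpha-actinin of non-muscle and smooth muscle cells, had 66.1 and 31.2 CPM, a ratio of 2.12 (1.69 to 2.62).

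Lmod1, Myl9 and Tpm2 had larger ratios than Flna, at lower levels. Lmod1, leiomodin, which nucleates actin filaments, had 39.96 CPM in the smooth muscle-rich spots and 5.93 CPM in the other spots, a ratio of 6.74 (4.94 to 9.06). The light chain Myl9 had 22.5 and 3.51 CPM, a ratio of 6.41 (4.21 to 9.50), and beta-tropomyosin (Tpm2) had 30.5 and 5.28 CPM, a ratio of 5.78 (4.05 to 8.07). Each of the 3 was counted in a minority of the 80 spots: Lmod1 in 27, Tpm2 in 21 and Myl9 in 19. Csrp1 had a ratio of 3.05, Pdlim7 of 2.24 and Myl6 of 2.16. Ppp1r14a and Actg2 had 4 and 7 counts in the 80 spots, with intervals of 0.790 to 8.41 and 0.934 to 5.13 that include 1.

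The rest of the contractile list lay close to the shift of all features. Synpo2 had a ratio of 1.34, Smtn of 1.28, Cnn2 of 1.27, Ppp1r12b of 1.20, Tns1 of 1.15, Palld of 1.07 and Filip1l of 0.995, while Tgfb1i1 was at 1.58 with 10 counts. Summed over the list, the level was 2433 CPM in the smooth muscle-rich spots and 1778 CPM in the other spots, a ratio of 1.37 (1.32 to 1.42). Tns1, Filip1l and Palld hold 658, 561 and 542 of the 3348 counts of the list in the 80 spots. Filip1l overlaps Cmss1 on the other strand. A list of cytoskeletal genes that heart muscle shares, such as Tpm1 and Des, was at 2098 and 2050 CPM, a ratio of 1.02 (0.986 to 1.06) that becomes 0.945 with the scaling outside ribosomal, mitochondrial and small RNA.

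**Figure D4:**
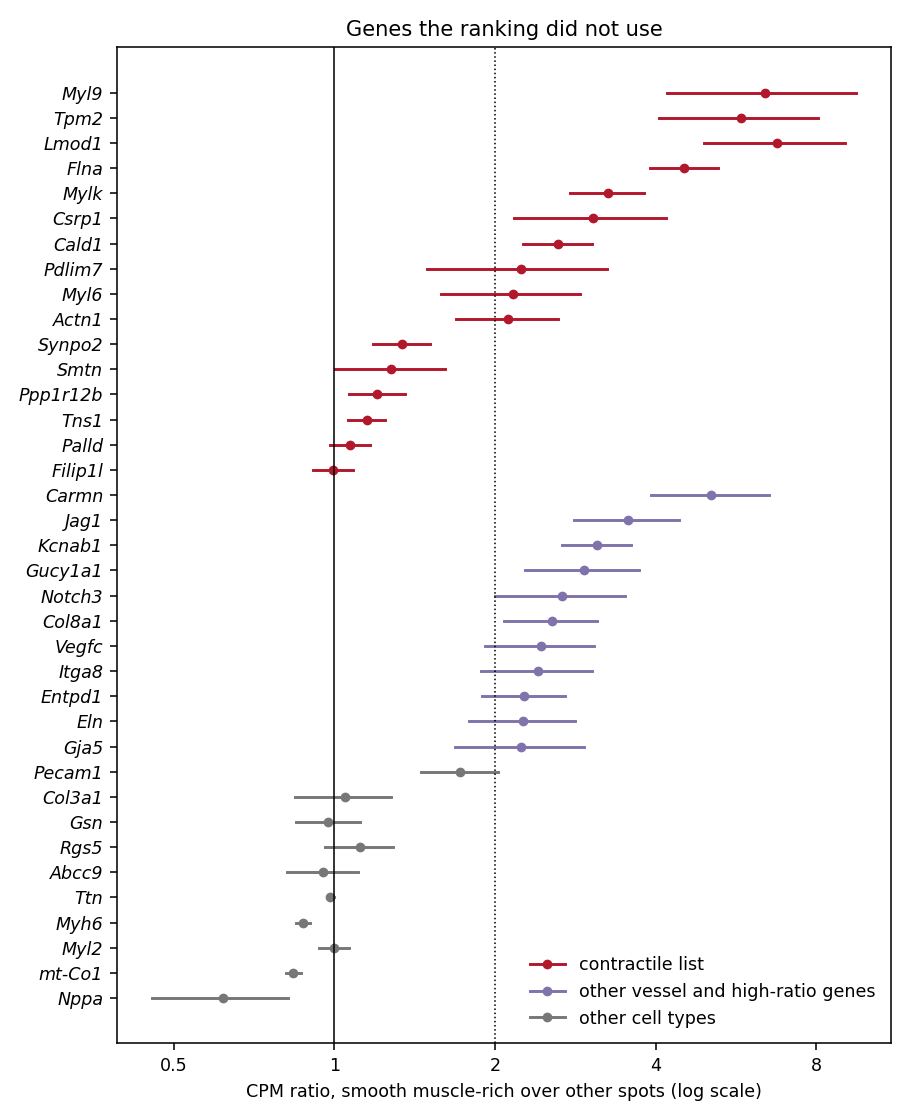
CPM ratio of smooth muscle-rich over other heart spots (horizontal axis, log scale) for genes the ranking did not use; points are ratios, lines exact 95% counting intervals, and the dotted line marks 2-fold. Lmod1, Myl9 and Tpm2 lie near 6, while Ttn, Myl2, Col3a1 and Abcc9 lie near 1.

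Genes that control smooth muscle were higher in part. Of 20 regulators, channels and receptors, 17 had a ratio above 1, beside 75.8% of all features at 50 CPM. The size rule at 50 CPM was passed by 3 of them, beside 1.11% of all features. Their median log2 ratio was 0.53, beside 0.15 for all features. Carmn, a long non-coding RNA of smooth muscle, had 53.0 CPM in the smooth muscle-rich spots and 10.4 CPM in the other spots, a ratio of 5.09 (3.92 to 6.54). Per spot, Carmn had 0, 0 and 7 counts at the lowest, median and highest smooth muscle-rich spot, against 0, 0 and 6 in the other spots. Gucy1a1, a subunit of the guanylate cyclase that nitric oxide activates, had 53.0 and 18.1 CPM, a ratio of 2.93 (2.27 to 3.73), and its partner subunit Gucy1b1 had 22.5 and 11.3 CPM, a ratio of 2.00 (1.34 to 2.88). Outside the list, Irag1, named because it passed the size rule, had 61.8 and 28.4 CPM, a ratio of 2.17 (1.72 to 2.71). Irag1 is the calcium-release regulator that the cyclic GMP-dependent kinase phosphorylates. The kinase itself, Prkg1, which is on the list, had 579 and 355 CPM, a ratio of 1.63 (1.52 to 1.75).

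Channels and other receptors gave a range of values. Itga8, the alpha-8 integrin, had 55.2 CPM in the smooth muscle-rich spots and 22.9 CPM in the other spots, a ratio of 2.41 (1.88 to 3.04). Kcnab1, a beta subunit of voltage-gated potassium channels, had 144 and 46.4 CPM, a ratio of 3.10 (2.67 to 3.59), and was counted in 49 of the 80 spots. Kcnab1 is not on the list of regulators, channels and receptors and is named for its ratio. Pde3a, which breaks down cyclic nucleotides, had 324 and 218 CPM, a ratio of 1.49. Kcnma1, the large-conductance potassium channel, had 123 and 81.5 CPM, a ratio of 1.51 (1.28 to 1.76). Cacna1c, the calcium channel that heart muscle also uses, was at 1269 and 1131 CPM, a ratio of 1.12, close to the shift of all features. Myocd, myocardin, the coactivator of serum response factor in smooth and heart muscle, had 138 and 114 CPM, a ratio of 1.21 (1.04 to 1.40). Kcnmb1 had 2 counts in the 80 spots, too few for a direction.

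The summed lists of arterial lining and of Notch signalling genes were higher in the smooth muscle-rich spots than in the other spots. Both lists were also higher in fibroblast-rich spots, whose values are given with that group. Of the genes named here, Jag1 and Gja5 were higher there too, at 37.0 and 28.3 CPM. Notch3 and Sema3g were not, at 10.2 and 2.90 CPM in the fibroblast-rich spots. Jag1, a Notch ligand made by arterial endothelium and by smooth muscle, had 64.7 CPM in the smooth muscle-rich spots and 18.2 CPM in the other spots, a ratio of 3.55 (2.81 to 4.42). Notch3, the Notch receptor of smooth muscle and pericytes, had 41.4 and 15.5 CPM, a ratio of 2.67 (2.00 to 3.51). Summed over 7 Notch genes, the level was 187 and 93.6 CPM, a ratio of 2.00 (1.76 to 2.27). Of the 7 genes, 6 were above 1, beside 75.8% of all features at 50 CPM, and Hes1, with 5 counts, was at 0.938. The arterial endothelial list of 11 genes, which also holds Jag1, was at 264 and 142 CPM, a ratio of 1.86 (1.67 to 2.06). Of its 11 genes 9 were above 1, beside the same 75.8% of all features. In the arterial list Sema3g, a secreted semaphorin of arteries, had 30.5 and 4.47 CPM, a ratio of 6.83 (4.77 to 9.59). The connexin Gja5 had 41.4 and 18.5 CPM, a ratio of 2.24 (1.68 to 2.93). Gja5 overlaps Gpr89 on the other strand. Nos3 was at 6.54 and 11.7 CPM, with an interval of 0.254 to 1.07 that includes 1.

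Endothelial genes as a whole lay closer to the median feature. The general endothelial list was at 668 CPM in the smooth muscle-rich spots and 595 CPM in the other spots, a ratio of 1.12 (1.05 to 1.20), close to the median feature. Pecam1, an adhesion molecule of all endothelium, had 113 and 65.4 CPM, a ratio of 1.72 (1.45 to 2.02), while the capillary-rich genes Flt1 and Fabp4 were at 0.920 and 0.891. The rank 4 spot held 26 of the 155 Pecam1 counts, or 16.8%, and without it the ratio was 1.49. Venous and lymphatic genes were at 175 and 174 CPM, a ratio of 1.005 (0.880 to 1.14) that becomes 0.928 with the scaling outside ribosomal, mitochondrial and small RNA.

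Pericyte genes, the markers of the related mural cells on capillaries, split. The list was at 401 CPM in the smooth muscle-rich spots and 324 CPM in the other spots, a ratio of 1.24 (1.13 to 1.35). In the list 7 of 11 genes were above 1, beside 75.8% of all features at 50 CPM, but only 5 of the 11 had 20 CPM in either group. The median log2 ratio of the 11 genes was 0.64, beside 0.15 for all features at 50 CPM. The size rule was passed by 2 of them at 20 CPM, beside 1.05% of all features, and by none at 50 CPM, beside 1.11%. Rgs5 and Abcc9, its most counted members, were at 1.11 (0.960 to 1.29) and 0.954 (0.815 to 1.11). Cspg4 had 27.6 and 10.2 CPM, a ratio of 2.70 (1.88 to 3.77), Mcam had 13.1 and 4.06 CPM, a ratio of 3.22 (1.86 to 5.24), and Pdgfrb had 30.5 and 19.9 CPM, a ratio of 1.54 (1.10 to 2.10). Smooth muscle cells also express these 3 genes and Notch3. Kcnj8 and Vtn had 4 and 2 counts in the 80 spots, with intervals that include 1.

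Part of the wall matrix list was higher in the same spots. Of its 16 genes 14 were above 1, beside 75.8% of all features at 50 CPM. Only Eln of the list passed the size rule at 50 CPM and at 20 CPM, beside 1.11% and 1.05% of all features. Eln, elastin, the rubber-like core of elastic fibres, had 61.0 CPM in the smooth muscle-rich spots and 27.01 CPM in the other spots, a ratio of 2.26 (1.79 to 2.82). Per spot, Eln had 0, 0 and 11 counts at the lowest, median and highest smooth muscle-rich spot, against 0, 0 and 10 in the other spots. Fibrillin-1 (Fbn1) had 129 and 86.1 CPM and Ltbp4 had 76.3 and 51.1 CPM, both at a ratio of 1.49, and Fbln5, which joins elastin to cells, had 23.3 and 14.3 CPM, a ratio of 1.63 (1.10 to 2.32). The list of 16 genes was at 625 and 453 CPM, a ratio of 1.38 (1.29 to 1.48), and at 1.18 without the first 10 ranks. Col8a1, a short-chain collagen made by vessel wall cells, had 78.5 and 30.7 CPM, a ratio of 2.56 (2.08 to 3.11), and Col18a1, a basement membrane collagen, had 39.96 and 14.1 CPM, a ratio of 2.84 (2.12 to 3.75). The basement membrane list as a whole was at 891 and 787 CPM, a ratio of 1.13 (1.07 to 1.20). Vegfc, a growth factor for lymphatic vessels, had 57.4 and 23.5 CPM, a ratio of 2.44 (1.92 to 3.07).

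The fibroblast list was at 609 CPM in the smooth muscle-rich spots and 582 CPM in the other spots, a ratio of 1.05 (0.975 to 1.12) that becomes 0.966 with the scaling outside ribosomal, mitochondrial and small RNA. Col3a1 was at 1.04 (0.845 to 1.28), Gsn at 0.974 (0.846 to 1.12) and Dcn at 0.841 (0.671 to 1.04). Valve and cartilage-like matrix genes were at 71.9 and 83.5 CPM, a ratio of 0.861 (0.698 to 1.05). Within them Prg4, the lubricant proteoglycan, had 6.54 and 23.3 CPM, a ratio of 0.280 (0.128 to 0.534), 1 of the 3 features that were 2-fold lower at 20 CPM.

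The other genes past the size rule were, like Irag1, Kcnab1, Col8a1 and Vegfc, not on a smooth muscle list. Entpd1, an enzyme that breaks down extracellular ATP, had 98.8 CPM in the smooth muscle-rich spots and 43.5 CPM in the other spots, a ratio of 2.27 (1.89 to 2.70). Dstn, destrin, which disassembles actin filaments, had 63.9 and 29.5 CPM, a ratio of 2.17 (1.72 to 2.69), and Map1b, a microtubule-associated protein, had 63.9 and 29.2 CPM, a ratio of 2.19 (1.74 to 2.72). Ptprj, a receptor tyrosine phosphatase, had 137 and 63.9 CPM, a ratio of 2.14, and Myrip, which links myosin to vesicles, had 62.5 and 29.2 CPM, also 2.14. Or5m3b, named as an olfactory receptor, had 77.7 and 35.3 CPM, a ratio of 2.21 (1.80 to 2.69). Among genes at 20 to 50 CPM, chosen for mention after their values were seen, Ccdc3 had 45.8 and 10.1 CPM, a ratio of 4.52 (3.41 to 5.90), and Slc38a11, named as an amino acid transporter, had 23.3 and 5.19 CPM, a ratio of 4.48 (2.99 to 6.52).

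A few deep spots carried much of these sums. The spot of rank 4 had the highest count of the 80 for 13 of the 19 genes past the size rule outside the ranking, Flna, Carmn, Jag1 and Eln among them. Without it 15 features passed, and Actn1, Ptprj and Dstn were at 1.96, 1.90 and 1.97. Without the first 10 ranks 7 features passed, Flna was at 3.01, Carmn at 3.79 and Eln at 1.56. Flna, Mylk, Cald1, Carmn, Jag1, Kcnab1 and Gucy1a1 had a ratio of 2 or more under all 18 other settings that gave ratios. All 21 features stayed above 1 under these settings. Myh11 and Acta2 are among the 21 and were part of the ranking in most of the settings, so nothing is drawn from their ratios. In 1 of these settings the spots were ranked by Flna, Mylk, Cald1 and 3 other contractile genes, so its ratios for those genes are not independent of the ranking.

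Most of the 80 spots also held heart muscle RNA. Cardiomyocyte sarcomere and calcium genes were at 30056 CPM in the smooth muscle-rich spots and 31497 CPM in the other spots, a ratio of 0.954 (0.945 to 0.964). Of these 20 genes 4 were above 1, beside 75.8% of all features at 50 CPM. Per spot the sum was 3168, 28847 and 50356 CPM at the lowest, median and highest smooth muscle-rich spot, against 1214, 31525 and 52133 CPM in the other spots. Of the 80 spots, 11 lay under the 10th percentile of the other spots (11665 CPM) and 4 above the 90th (39824 CPM). By definition, 10% of the other spots lie beyond each of these limits. Ttn, titin, was at 0.983, Myh6, the heavy chain of adult mouse heart myosin, at 0.873 and Ryr2, the calcium release channel, at 0.963.

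Energy metabolism genes were lower by a similar or larger margin. The 13 mitochondrially encoded protein genes were all below 1 and together at 12952 CPM in the smooth muscle-rich spots and 15261 CPM in the other spots, a ratio of 0.849 (0.836 to 0.861). All 10 counted genes of fatty acid uptake and oxidation were below 1, at 2541 and 2819 CPM, a ratio of 0.901 (0.871 to 0.932). Over all features at 50 CPM, 75.8% were above 1. Among the genes with the lowest ratios at 50 CPM were Uqcrfs1 and Ndufv1, subunits of respiratory complexes, at 0.629 (0.469 to 0.828) and 0.725 (0.541 to 0.952), and Eno3, the muscle enolase, at 0.743 (0.612 to 0.895). Fgf12 was at 0.632, Pdzrn4 at 0.668, Rp1 at 0.673, Homer1 at 0.712, Igfbp5 at 0.737, Tmem108 at 0.745, Ppm1k at 0.746 and Rmnd5a at 0.747.

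Atrial genes were lower in the 80 spots, but not when 160 spots were taken. Summed over 9 atrial genes the level was 284 CPM in the smooth muscle-rich spots and 394 CPM in the other spots, a ratio of 0.721 (0.650 to 0.797). None of the 9 was above 1, beside 75.8% of all features at 50 CPM. Nppa, atrial natriuretic peptide, had 35.6 and 57.7 CPM, a ratio of 0.617 (0.455 to 0.819). That was the lowest ratio at 50 CPM outside ribosomal, mitochondrial and small structured RNA. Myl7, the atrial light chain, had 11.6 and 34.0 CPM, a ratio of 0.342 (0.195 to 0.557), 1 of the 3 features that were 2-fold lower at 20 CPM, beside Prg4 and Tmx1. With each spot weighted equally, the atrial list was at 0.981. With 160 spots the list was at 1.17 and Nppa at 1.06, so the direction turned. Ranks 81 to 160 were at 636 CPM of the atrial list, against 382 CPM beyond rank 320. The ventricular list was at 679 CPM in both groups, a ratio of 0.999 (0.935 to 1.07) that becomes 0.923 with the scaling outside ribosomal, mitochondrial and small RNA.

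Lists of markers of other cells that a spot could hold had summed ratios from 0.529 to 1.25, with single genes further from 1. Leukocyte and macrophage genes were at 230 CPM in the smooth muscle-rich spots and 227 CPM in the other spots, a ratio of 1.01 (0.901 to 1.13), below 1 with the other scaling (0.934). Schwann cell genes were at 97.4 and 81.4 CPM, a ratio of 1.20 (0.999 to 1.42), and ganglion and nerve genes at 45.1 and 36.9 CPM, a ratio of 1.22 (0.933 to 1.58). Stmn2, a stathmin of neurons on the last list, had 22 counts, at 15.99 and 6.501 CPM, a ratio of 2.46 (1.52 to 3.8). Conduction system genes were at 182 and 172 CPM, a ratio of 1.06 (0.931 to 1.20), below 1 with the other scaling (0.980). Mast cell, skeletal muscle, mesothelium, fat and epithelium lists held 24, 53, 60, 12 and 9 counts in the 80 spots, and each interval includes 1. Fat and epithelium were at 0.601 and 0.529, with too few counts for a direction. TGF-beta signalling genes were at 349 and 303 CPM, a ratio of 1.15 (1.05 to 1.26), and immediate early genes at 69.8 and 59.3 CPM, a ratio of 1.18 (0.949 to 1.44).

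Erythrocyte genes depended on which of the 80 spots were taken. Their list was at 532 CPM in the smooth muscle-rich spots and 496 CPM in the other spots, a ratio of 1.07 (0.994 to 1.15), and below 1 with the other scaling (0.990). In the 48 spots with at least 3 marker counts the ratio was 0.496. By rank, the level was 147 CPM in ranks 1 to 20, 501 in ranks 21 to 40 and 943 in ranks 41 to 80, against 469 CPM beyond rank 320. Hbb-bs, a beta-globin, reached 8664 CPM in a single spot, and 44 of the 80 spots had a count of it.

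Levels of some other smooth muscle genes fell with rank within the 80, while the whole contractile list fell less. That list was at 3002 CPM in ranks 1 to 20, 2268 in ranks 21 to 40 and 1997 in ranks 41 to 80. It was at 2010 CPM in ranks 81 to 160 and 1769 beyond rank 320. Cacna1c did not follow the rank, at 1281, 1255 and 1270 CPM in the 3 bands of the 80. The 6 genes summed next were chosen after they were seen to be higher in the 80 spots. The sum of Flna, Mylk, Cald1, Lmod1, Tpm2 and Myl9 was 866 CPM in ranks 1 to 20, 409 in ranks 21 to 40 and 255 in ranks 41 to 80. Outside the 80 it was 213 CPM in ranks 81 to 160, 165 in the next 160 ranks and 138 beyond rank 320. The last 40 spots were therefore closer to the next 80 ranks than to the first 20. Lmod1 was at 65.5, 32.4 and 20.5 CPM in the 3 bands of the 80, and at 11.1, 4.96 and 5.81 CPM in the bands that follow. Carmn was at 88.0, 44.9 and 24.7 CPM within the 80, and at 15.9, 16.7 and 9.88 CPM after them.

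Arterial and wall genes were concentrated in the first 20 ranks. The arterial endothelial list was at 405 CPM in ranks 1 to 20, 202 in ranks 21 to 40 and 175 in ranks 41 to 80, and at 190, 150 and 140 CPM in the bands outside. Eln was at 102, 34.9 and 41.1 CPM within the 80, against 26.4 CPM beyond rank 320. Pecam1 was at 196 CPM in ranks 1 to 20 and at 69.8 and 63.7 CPM in the next bands, against 64.8 CPM beyond rank 320. The pericyte list had no such peak, with 381, 429 and 399 CPM within the 80 and 324 CPM beyond rank 320. Mitochondrially encoded genes were at 10425 CPM in ranks 1 to 20, 13181 in ranks 21 to 40 and 15301 in ranks 41 to 80, against 15347 CPM beyond rank 320. Depth moved with the bands, with a median of 22116 counts per spot in ranks 1 to 20, 14992.5 in ranks 21 to 40 and 7939.5 in ranks 41 to 80, and its part in these levels was not tested. With the other spots weighted to the depth of the 80 taken as a whole, 21 features passed the size rule, which says nothing of depth between the bands.

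**Figure D5:**
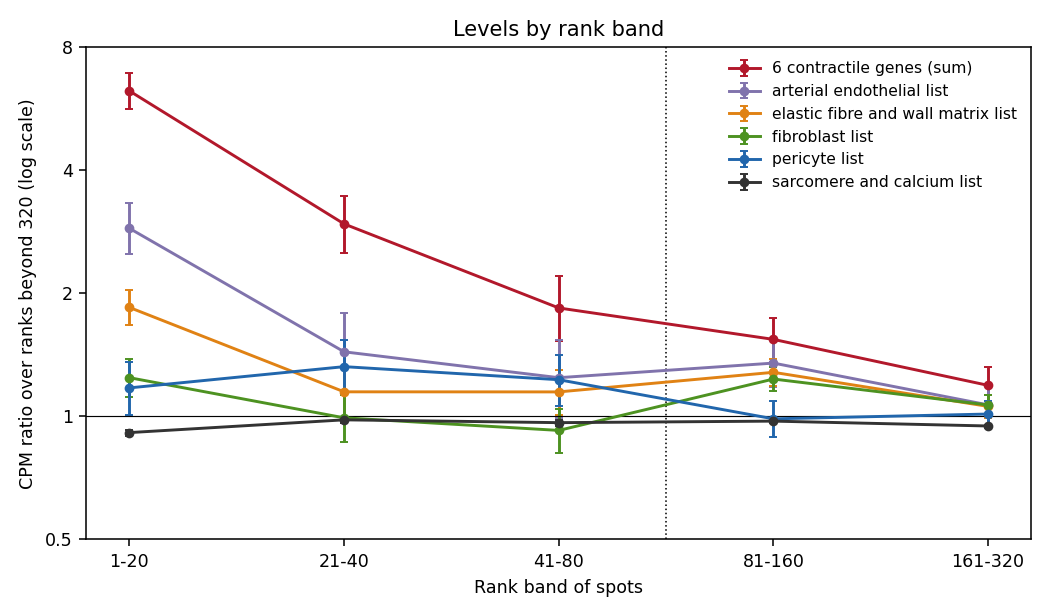
Summed CPM in each rank band over the CPM beyond rank 320 (vertical axis, log scale) for 6 contractile genes and 5 lists, by rank band (horizontal axis); lines are exact 95% counting intervals and the dotted line marks the end of the 80 spots. The 6 contractile genes stand at 866 CPM in ranks 1 to 20, against 138 CPM beyond rank 320, while the sarcomere list stays near 1.

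A ranking that used none of the 4 markers overlapped with the 80 in part. Its 6 genes were chosen after they were seen to be higher in the 80 spots, so it is not independent of them. When the same heart spots were ranked by Flna, Mylk, Cald1, Lmod1, Tpm2 and Myl9, the 4 markers were at 444 CPM in the top 80 and 36.2 CPM in the rest, a ratio of 12.3 (11.05 to 13.6). That top 80 shared 27 spots with the smooth muscle-rich spots, or 33.75% of each list. In it the valve and cartilage-like matrix list was at 2.56 times the rest and the fibroblast list at 1.51, against 0.861 and 1.05 in the smooth muscle-rich spots.

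Against 2 other ranked groups of heart spots, the 80 were higher in the contractile list and in Carmn and Sema3g, but the wall matrix and arterial endothelial lists were higher in fibroblast-rich spots. The top 80 by the fibroblast genes Col1a1, Col1a2, Col3a1 and Dcn shared 3 spots with the smooth muscle-rich spots, and the top 80 by the atrial genes Nppa, Myl7, Myl4 and Sln shared 2. The 4 smooth muscle markers were at 495 CPM in the smooth muscle-rich spots, 37.0 CPM in the fibroblast-rich spots and 44.5 CPM in the atrial spots. Fibroblast genes were at 609 CPM in the smooth muscle-rich spots and 3147 CPM in the fibroblast-rich spots, and sarcomere genes at 30056 CPM in the smooth muscle-rich, 9600 CPM in the fibroblast-rich and 28583 CPM in the atrial spots. Eln was at 61.0 CPM in the smooth muscle-rich spots, 96.4 CPM (80.8 to 114) in the fibroblast-rich spots and 62.4 CPM in the atrial spots. Flna was at 155 CPM in the smooth muscle-rich spots, 96.4 CPM in the fibroblast-rich spots and 42.6 CPM in the atrial spots. Carmn was at 53.0, 10.2 and 10.5 CPM in the same 3 groups, and Sema3g at 30.5, 2.90 and 2.47 CPM.

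Several genes and lists that were higher in the smooth muscle-rich spots than in the other spots were as high or higher in a compared group. The contractile list was at 2433 CPM in the smooth muscle-rich spots, 1767 CPM in the fibroblast-rich spots and 1986 CPM in the atrial spots, but its member Actn1 was at 66.1, 144 (125 to 166) and 42.6 CPM. The wall matrix list was at 625 CPM in the smooth muscle-rich spots, 1739 CPM in the fibroblast-rich spots and 789 CPM in the atrial spots. The arterial endothelial list was at 264, 331 and 165 CPM in the same order, and the Notch list at 187, 194 and 129 CPM. Gucy1a1 was at 53.0, 28.3 and 57.5 CPM, Prkg1 at 579, 712 and 458 CPM, and Pecam1 at 113, 162 and 80.3 CPM. Ptprj was at 137, 211 (187 to 237) and 67.96 CPM, and Entpd1 at 98.8, 113 and 63.02 CPM. These levels are therefore not particular to the 80 spots. Myl9 was at 22.5, 7.25 and 17.9 CPM, Col8a1 at 78.5, 68.9 and 59.9 CPM, and Itga8 at 55.2, 47.9 and 22.2 CPM. For Myl9, Col8a1 and Itga8 the higher of the compared levels was below that of the 80 spots, but the counting intervals overlapped. The same held for Vegfc, at 57.4 CPM in the 80 spots and 39.2 CPM in the fibroblast-rich spots. It also held for Col18a1, Gja5, Csrp1, Myl6 and Mcam against the fibroblast-rich spots, and for Tpm2 against the atrial spots.

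The same ranking in the brain section picked spots with part of the same genes. Of 2628 brain spots past the threshold, the top 80 held 653814 counts and were at 456 CPM of the 4 markers, against 11.2 CPM in the other brain spots, and 19 of them had a single marker count. Flna was at 127 and 14.4 CPM, a ratio of 8.81 (6.89 to 11.1), Carmn at a ratio of 13.6 (8.07 to 21.9), Mylk at 4.74 (3.69 to 5.997) and Myl9 at 26.6 (15.7 to 44.1). Lmod1 was at 18.4 and 5.02 CPM, a ratio of 3.65 (1.85 to 6.55) that rests on 12 counts. Kcnab1 and Itga8, past the size rule in heart, were at 1.22 (1.05 to 1.42) and 0.949 (0.659 to 1.32) in brain, where the other brain spots had 220 and 56.4 CPM. Matrix genes had larger ratios there: the fibroblast list was at 580 and 111 CPM in brain, a ratio of 5.21 (4.68 to 5.80), and Eln at 167 and 4.81 CPM, a ratio of 34.6 (26.9 to 44.5). The 2 sections are 1 library each, and the difference between their ratios was not tested.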

How the data were processed

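One library per section, from 1 mouse brain and 1 mouse heart, was available. Per the submitters' processing notes, the authors aligned and counted reads with STARsolo on mm39; versions, merging of molecular tags, intron counting and strand use are not given in the sources used here. The deposited values are whole-number counts, a sparse matrix of 40276 features and 4992 barcodes per section, of which 23 features come from ribosomal DNA. Counts were summed over spots and divided by their total (CPM). Ratios carry exact conditional binomial intervals and levels exact Poisson intervals at 95%. The size rule asked for 2-fold and 50 CPM. Log2 ratios add 0.5 counts to each sum. Python 3.11.15, numpy 2.4.6, scipy 1.17.1 and pandas 2.3.3 were used, and the steps were tested on simulated data. Spot positions and images were not used, and doublet calling does not apply to spots.

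The rule for named genes took the markers, the contractile list, the 12 highest and 12 lowest ratios at 50 CPM outside ribosomal, mitochondrial and small RNA, and per list the 3 most counted members and those past the size rule. The 30 lists and the members were chosen with earlier results of these data known. Genes named from the lists beyond that rule, and those at 20 to 50 CPM, were chosen after their values were seen. Promoters are RefSeq windows on GRCm38.p6. Gene overlaps come from the mouse GENCODE release M21, matched by gene ID (35500 IDs found). In the lists Ctgf and Cyr61 were matched as Ccn2 and Ccn1. Alternatives changed scaling, spot weights, depth and number of spots, ranking and CPM minimum.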

Additional observations from a re-analysis of the deposited data

Results flagged for a closer look

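Marker RNA was also counted outside the ranked spots. The 2187 heart barcodes below the depth threshold, which no comparison used, held 72 counts of Acta2, Myh11, Tagln and Cnn1 among 1551268 counts, or 46.4 CPM (36.3 to 58.5). All ranked heart spots together were also at 46.4 CPM. None of these barcodes had 3 or more marker counts. The 1265 barcodes under 500 counts held 14 marker counts among 154326, or 90.7 CPM (49.6 to 152). Brain barcodes below the same threshold held 140 marker counts among 3192275, or 43.9 CPM (36.9 to 51.8), so the heart level did not differ from the brain level beyond counting error. The study has no control sample, and the counts appear here because they were above the limit that a count of 0 allows. Its source was not tested.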

How the results depend on the processing

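As reported, 21 features were higher and 0 lower, the contractile list was at 1.37 and the sarcomere list at 0.954. Counts outside ribosomal, mitochondrial and small structured RNA as the total gave 36 higher, 4 lower (Dkk3, Myl7, Prg4 and Tmx1), and ratios of 1.26 and 0.882; 18 of the 21 features were among the 36. Equal spot weights gave 1.29 and 0.914. A minimum of 2000 counts gave 1.42 and 0.913, and of 8000 counts 1.30 and 0.971. Taking 40 spots gave 37 higher and 1.5 for the contractile list, and 160 spots gave 9 higher, 1.26 and 0.964. Ranking over counts outside ribosomal RNA gave 0.982 for the sarcomere list. Ranking by the excess over the expected marker counts gave 12 higher, 2 lower (Hbb-bs and Hbb-bt) and 1.03 for the sarcomere list, with 60 of the 80 spots shared. Ranking without Myh11 gave 1.28 for the contractile list; ranking without Tagln gave 1 lower (Hbb-bt) and 0.983 for the sarcomere list. No CPM minimum gave 3485 higher and 10170 lower, mostly features with few counts, and a minimum of 100 CPM gave 7 higher. The cause of these changes was not tested.

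Chosen after seeing the data, a minimum of 20 CPM gave 51 higher and 3 lower (Myl7, Prg4 and Tmx1). The 48 spots with at least 3 marker counts gave 2 lower (Hbb-bt and Mocos), 1.45 and 0.997. Ranks 11 to 80 gave 7 higher, 1.26 and 0.973, and leaving out the spot of rank 4 gave 0.970 for the sarcomere list. Ranking by 6 other contractile genes gave 75 higher, 1 lower (Fbxo40), 1.43 and 0.723, and that ranking uses members of the contractile list. The other values of these 4 results stayed within 1.5 times the count or within the counting interval.

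No paired analysis was possible because each tissue has 1 library. The limits are that single library, the low marker counts (32 of the 80 spots had 1 or 2), and intervals that cover counting error only. A gene at 0 in the 80 spots could be at up to 2.18 CPM (3 counts).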
